A study of Nematostella vectensis with 66 samples.

Results

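A set of 100 gene models of the starlet sea anemone Nematostella vectensis was described here for its high transcript level in the early afternoon, at ZT9. They were chosen by their measured values. Of 24265 gene models, 7691 had a mean CPM (a gene's count per 1000000 counts of its library) of at least 15 over 60 libraries of 9 hours. Of these, 2468 had their highest hourly mean of log2(CPM + 2) at ZT9, and the 100 with the largest F of a one-way analysis of variance over hours were kept. The hourly course of the members in those libraries is therefore a description and supports nothing.

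ZT is zeitgeber time, counted in hours from the start of the light phase. The animals were adults of a laboratory stock that descends from anemones of Great Sippewissett Marsh, Massachusetts. In all, 200 adults were moved into 10 mesh pens in the sediment of a marsh pool with restricted tides, at a salinity matched to the field. They were taken hourly on a single day, from 8 h on the clock (ZT3) to 17 h (ZT12), and there was no treatment other than the hour. Libraries A to D of an hour came from single animals and E to G from pools of 2 animals. The usual hour thus had 4 of the first kind and 3 of the second, and ZT6 had 4 and 2. ZT4 had 1 library of a single animal and 3 of pools. Pool D of ZT4 bears a letter that the protocol keeps for single animals, and its label was followed. The pen of each animal is not given, so pen and hour cannot be told apart, and with a single day no hour was repeated on another day.

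Nematostella is a burrowing cnidarian of estuaries with a simple body plan and a nerve net. Like other animals it has relatives of the circadian clock genes, and its activity and many of its transcripts are known to follow the daily light cycle. The gene model identifiers matched 0 entries of the RefSeq table of assembly jaNemVect1.1, so the genes are given here by identifier, without a function or a sequence. Markers of cell types could not be checked for the same reason. In libraries of whole animals, fewer cells of a type and less RNA per cell cannot be told apart.

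Library totals ran from 251647 to 909746 counts (median 640195) over the 66 libraries, of which 37 were individual and 29 pooled. The 7 ZT9 libraries held 603428 to 909746 counts. Individual B of ZT3, individual C of ZT4 and the pools E of ZT4 and of ZT5 are called the 4 early libraries below. They stood apart from the rest in some genes (NVE19960 is described further on), and all 4 were among the 6 libraries the rule left out. Scaling by library total put ZT9 above the other hours in the bulk of genes, since the median of the 7691 gene models stood 0.13 log2 units above its mean at ZT9. Under trimmed mean of M-values (TMM) scaling, which sets libraries level by their bulk of genes, that median was 0.02. The 100 most abundant gene models took 26.9% of the counts in the median ZT9 library, against 29.2% to 31.5% in the median library of the other 8 hours of the rule. TMM scaling put 1607 gene models (20.9%) highest at ZT9, in place of 2468 (32.1%). Of the 100 members, 78 were still highest at ZT9 with it, while 11 were highest at ZT12, 9 at ZT10, 1 at ZT3 and 1 at ZT6. The 22 that moved fell short of another hour by at most 0.15 log2 units at ZT9, with a median of 0.03.

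The members stood low in the morning, climbed through midday, peaked at ZT9 and kept part of that level to the end of sampling. Relative to its own mean, in log2 units, the median member stood at -0.32 at ZT3, -0.46 at ZT5, -0.28 at ZT6 and -0.13 at ZT7. It reached 0.15 at ZT8 and 0.59 at ZT9, which was 0.45 above the median of all 7691 gene models at that hour. With TMM scaling the ZT9 value was 0.48. After ZT9 the median member was at 0.12 at ZT10, 0.07 at ZT11 and 0.21 at ZT12. These later values lay between those of the morning and the peak. At ZT12, 99 of 100 members stood above their mean of ZT3 and ZT5, against 60.9% of the 7691 gene models.

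**Figure D1:**
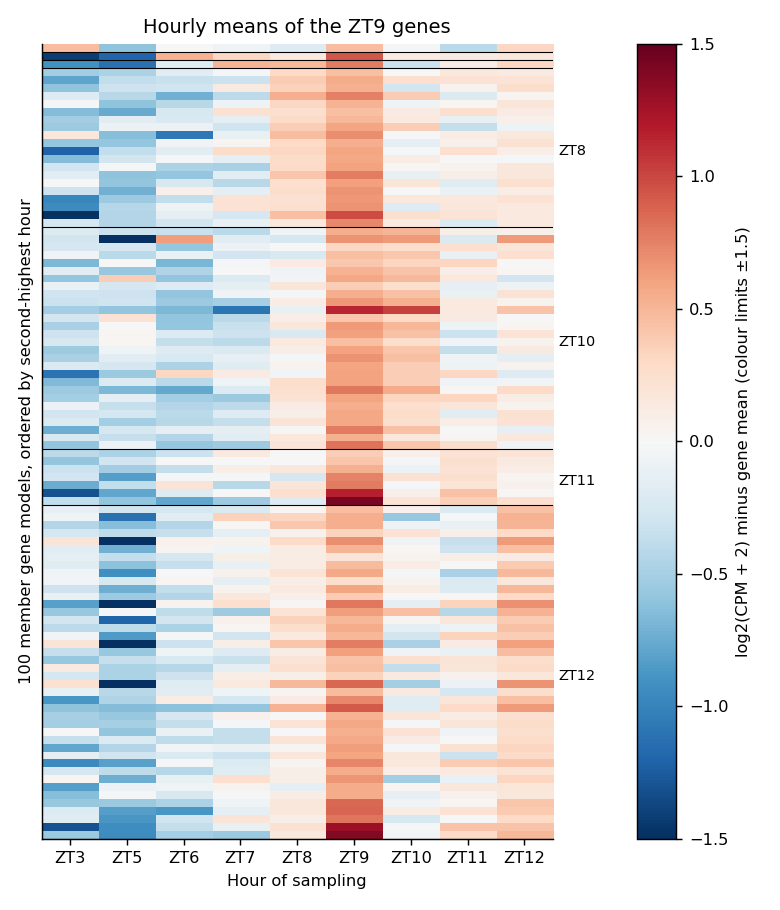
Hourly means of the 100 members in the 60 libraries of the rule, as log2(CPM + 2) minus the gene's mean over those libraries, with hours as columns and members as rows. Rows are ordered by the hour with the second-highest mean (ZT12 for 42 members, ZT10 for 28 and ZT8 for 20), and blue in the left columns against red at ZT9 shows the low morning and the peak the members were chosen for.

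The size of the swing varied among members. The mean CPM at ZT9 was 2.36 times that of the lowest hour in the median member, and from 1.43 to 7.28 times over all 100. It was at least 2 times in 80 members and at least 4 times in 13. The trough lay at ZT5 for 44 members, at ZT3 for 30, at ZT6 for 19, at ZT7 for 5 and at ZT11 for 2. Both the genes and the hours were taken for being extreme, which inflates these folds. The members were somewhat more abundant than the background, with a median mean of 55.4 CPM against 39.1 CPM for all 7691. They varied less between libraries of an hour, with a median SD of 0.40 against 0.47 log2 units, which the F of the rule favours. The depth was enough to count 98 members in every one of the 60 libraries, and the lowest count of a member in any ZT9 library was 8.

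By the limits set here, few members formed an isolated spike at ZT9. A peak was called sharp where ZT9 exceeded both ZT8 and ZT10 by at least 0.5 log2 units, and 19 members met that. A late plateau, with ZT10, ZT11 or ZT12 within 0.25 of ZT9, held 50 members, and an early plateau, with ZT7 or ZT8 within 0.25, held 21. The plateaus shared 13 members, 2 sharp members also had one, and 25 members had none of these shapes. These counts depend on the limits, and no share over all genes stands beside them. The sharp members differed from the late plateau most at ZT3. Their median was -0.75 at ZT3 and 0.79 at ZT9, against -0.27 and 0.54 for the late plateau. In 31 members each hourly mean from ZT5 to ZT9 exceeded the one before, which held for 6.89% of the 7691 gene models. All 3 hours from ZT10 to ZT12 stood above ZT3, ZT5 and ZT6 in 56 members, against 14.6% of the 7691. The hour nearest to the peak was often not adjacent to it. ZT12 was second highest in 42 members, while ZT8 or ZT10 was in 48 members together.

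NVE19553 had the largest F, 11.2. Its 6 ZT3 libraries of the rule ran from 4.58 to 13.9 CPM with a median of 9.42, and its 6 ZT5 libraries from 5.91 to 20.5 CPM with a median of 10.5. At ZT6 it ran from 12.98 to 64.7 CPM, with a median of 48.3. The 7 ZT9 libraries held 40.4 to 71.5 CPM with a median of 48.1, and the 7 ZT12 libraries 20.5 to 43.7 CPM with a median of 30.9. All ZT9 libraries thus lay above all ZT3 and ZT5 libraries, whereas the ZT6 libraries overlapped those of ZT9 widely. In 2 of the ZT3 libraries, individual A and pooled G, the gene had 3 counts, so its morning values carry a large counting error.

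NVE19574, with an F of 10.2, lacked the early rise. Its ZT6 libraries held 8.11 to 24.3 CPM with a median of 16.4, and its ZT8 libraries 20.4 to 48.3 CPM with a median of 29.1. At ZT9 they held 42.2 to 62.1 CPM with a median of 46.5. At ZT10 the spread widened to 18.5 to 79.6 CPM around a median of 40.5, so that hour overlapped ZT9 on both sides. The SD was 6.58 CPM at ZT9 and 19.4 CPM at ZT10 (n = 7 each).

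NVE12346 was the sharpest member, with ZT9 the farthest above its second-highest hour, 1.06 log2 units. Individual libraries A to D of ZT9 held 129, 37.4, 78.2 and 133 CPM, and pooled libraries E to G held 117, 139 and 184 CPM. At ZT8 the 7 libraries ran from 16.7 to 59.4 CPM with a median of 32.2, and at ZT10 from 25.5 to 96.0 CPM with a median of 40.4. The ZT9 library B, at 37.4 CPM, lay inside the range of every other hour except ZT4 and ZT6, and the remaining 6 ZT9 libraries exceeded all ZT8 libraries. Outside ZT9 and ZT10, the pooled library G of ZT5 was the highest, at 82.8 CPM.

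NVE15740 was the next sharpest. Its ZT9 libraries A to D held 113, 101.1, 114 and 139 CPM and E to G held 105, 82.8 and 79.5 CPM, a narrow group for this gene. ZT8 ran from 17.9 to 113 CPM with a median of 37.6, and ZT10 from 12.7 to 115 CPM with a median of 27.1. Individual D and pooled E at ZT8, with 113 and 81.5 CPM, and pooled F at ZT10 therefore lay inside the ZT9 range. The highest libraries of ZT11 and ZT12, at 98.7 and 95.7 CPM, also lay inside that range. The ZT5 libraries, from 8.597 to 33.4 CPM, did not overlap it.

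NVE3113 was the most abundant member, with a mean of 863 CPM. It ran from 391 to 781 CPM at ZT6 with a median of 550, from 718 to 1700.3 CPM at ZT9 with a median of 1416, and from 834 to 1944 CPM at ZT10 with a median of 1054. ZT9 and ZT10 could not be ordered for this gene, since TMM scaling placed ZT10 0.01 log2 units higher. By ZT11 it was back at 635 to 916 CPM with a median of 754.

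The flattest peaks were those of NVE7526 and NVE1539. NVE7526 held 375 to 916 CPM at ZT9 with a median of 494, 331 to 807 CPM at ZT3 with a median of 562, and 194 to 386 CPM at ZT5 with a median of 263. ZT3 and ZT9 thus stood near each other in this gene, with a dip between, and TMM scaling put ZT3 above ZT9 by 0.15 log2 units. After ZT9 the gene fell again, to 179 to 412 CPM at ZT11 with a median of 327, and its median at ZT12 was 496 CPM. NVE1539 stood at 169 ± 31.8 CPM at ZT9 and at 165 ± 11.8 CPM at ZT12 (SD, n = 7 each), and TMM scaling placed ZT12 above ZT9 by 0.08 log2 units.

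**Figure D2:**
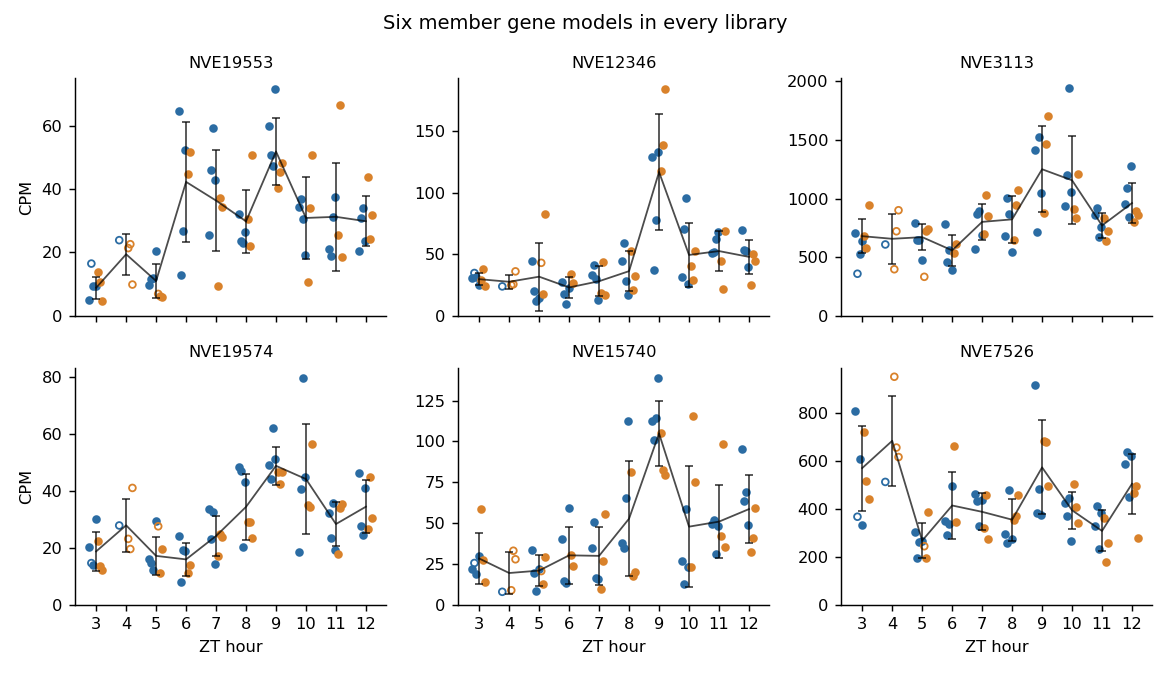
CPM of 6 members in each library by hour, with individual libraries in blue, pooled libraries in orange, libraries outside the rule as open circles and a black line through the mean with its SD. NVE19553 and NVE19574 have the largest F, NVE12346 and NVE15740 the sharpest ZT9 peaks and NVE3113 and NVE7526 the highest mean CPM, and in NVE7526 the ZT3 and ZT4 libraries overlap those of ZT9.

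NVE24164 and NVE6210 had the largest SD between libraries of an hour. NVE6210 ran from 41.4 to 186 CPM at ZT9 with a median of 75.02, and from 30.3 to 216 CPM at ZT12 with a median of 96.3. ZT5 was its lowest hour, at 3.28 to 18.9 CPM with a median of 16.3. NVE24164 likewise had its lowest values at ZT5, from 5.16 to 45.97 CPM with a median of 24.9, against 60.95 to 282 CPM at ZT9 with a median of 112. With TMM scaling NVE24164 was highest at ZT6 and NVE6210 at ZT12, so the highest hour of both depended on the scaling. At the edge of the rule, rank 100 (NVE10350) had an F of 5.441 and the next gene in rank (NVE24794), outside the list, one of 5.436. NVE10350 had 39.1 ± 7.58 CPM at ZT9 and 11.3 ± 4.44 CPM at ZT5, and NVE24794 had 26.8 ± 8.27 CPM and 9.83 ± 4.54 CPM (SD, n = 7 and 6). The genes on either side of the limit were thus both lower at ZT5 than at ZT9. Their courses after ZT9 differed, with NVE10350 at 21.4 ± 3.65 CPM and NVE24794 at 9.43 ± 3.12 CPM at ZT11 (SD, n = 7 each).

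Library by library, the ZT9 level of the members was shared by all 7 libraries of that hour. The level of a library was taken as the median over members of log2(CPM + 2) minus the gene mean. Individual libraries A to D of ZT9 stood at 0.70, 0.39, 0.68 and 0.54, and pooled libraries E to G at 0.60, 0.67 and 0.57. Of the 53 libraries of other hours that the rule used, 2 reached the lowest ZT9 library, and both were of ZT10. The ZT10 libraries were spread widely, with individual C at 0.56, pooled G at 0.41, individual B at 0.35 and pooled F at 0.18. Individuals A and D and pooled E of ZT10 stood at -0.11, -0.18 and -0.19. The median of all 7691 genes ran from -0.13 to 0.09 over the same ZT10 libraries. At ZT12 the 7 libraries lay closer together, from 0.13 to 0.37. At ZT7 pooled library E was the lowest of all 60 at -0.66, where all genes stood at -0.19.

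Summed over the 100 members, the ZT9 libraries held 11194 to 14912 CPM with a median of 13670. The ZT5 libraries of the rule held 6049 to 7926 CPM with a median of 6476, and the ZT12 libraries 9794 to 11458 CPM with a median of 9992. Against single hours, all ZT9 libraries lay above all ZT5 libraries in 58 members and above all ZT3 libraries in 55. Of the 7691 gene models, 4.49% had that outcome against ZT5 and 3.63% against ZT3. The number was 39 against ZT6 (3.12% of the 7691), 25 against ZT7 (1.39%) and 12 against ZT11 (1.27%). It was 3 against ZT10 (0.143%), 3 against ZT12 (0.351%) and 2 against ZT8 (0.247%), the hours whose means were nearest. The rule used all these comparisons, so nothing is read from the counts.

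**Figure D3:**
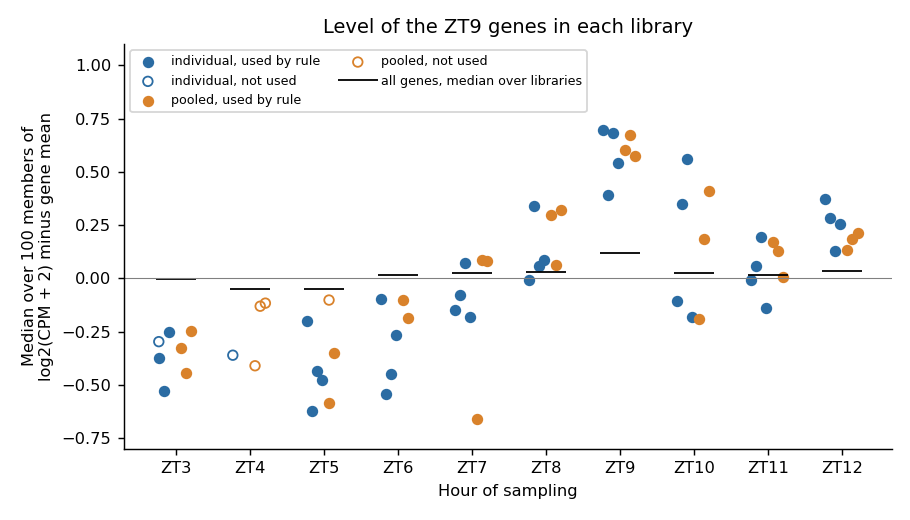
Median over the 100 members of log2(CPM + 2) minus the gene mean in each of the 66 libraries, by hour and type of library, with open circles for libraries the rule did not use and a black bar for the median of all genes at that hour. The ZT9 libraries lie between 0.39 and 0.70, the ZT10 libraries spread from -0.19 to 0.56, and the open ZT4 circles lie below all ZT9 libraries.

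Within an hour the members tended to be high or low together in the same library. After each hour's mean was taken off, the median Pearson r over the 4950 pairs of members was 0.19 across the 60 libraries, and 85.1% of pairs were positive. All pairs of the 7691 gene models had a median r of 0.02, pairs of all 2468 genes highest at ZT9 had 0.11, and pairs of the 293 other genes with as large an F had 0.09. The libraries share depth and scaling, and with TMM scaling the members' median r was 0.10 against 0.00 for all pairs (0.0009). The first axis of these residuals held 23.99% of the members' variance, against 34.04% of the variance of all 7691. On the members' axis 98 members loaded in the same direction, a count made for the members alone. The members' median r with NVE20622, a gene with a large spread between individual animals, was -0.12 over the 35 individual libraries, against -0.02 for all genes. These values are descriptions, and no test was made of them.

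The hour ZT4 was outside the rule, and most members were low there too. Over its 4 libraries the median member stood at -0.31, against -0.12 for all 7691 gene models. Of the 100 members, 98 had a lower mean at ZT4 than at ZT9, which the choice of genes high at ZT9 largely fixes, since 94.2% of all 2468 genes highest at ZT9 did the same. ZT4 was among the 5 lowest of the 10 hours in 80 members, against 63.05% of the 7691, and the choice of genes bears on that count too. In 67 members ZT4 stood above the mean of ZT3 and ZT5, against 42.9% of the 7691. By library, the median member stood at -0.36 in individual C, -0.41 in pooled D, -0.13 in pooled E and -0.12 in pooled F. Individual C was the shallowest of all 66 libraries, at 251647 counts, and all genes stood at -0.31 in it.

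ZT4 was compared with its neighbours by edgeR's quasi-likelihood test on all 66 libraries, as ZT4 minus the mean of ZT3 and ZT5. A gene can differ from that mean and still lie between ZT3 and ZT5. The rule chose the members partly for low values at ZT3 and ZT5, which favours a positive difference in the members. The test is thus only partly independent of the rule, and the shares over all genes carry no such choice. In the test 5 of 100 members rose (adjusted p below 0.05, Benjamini-Hochberg) and none fell. Of the 10916 gene models tested, 0.696% were called higher. At an unadjusted p below 0.05, 21 members were higher (6.38% of all genes tested) and 1 was lower (5.16% of all genes tested). The median difference was 0.11 log2 units in the members and -0.03 in all genes tested, with a median SE of 0.25 for a member. Over all genes tested the test called 86, and both counts depended on the libraries used, though not always together. Without individual C of ZT4, 118 of all genes were called while the members called stayed at 5. Without pooled library E or without pooled library F of ZT4 the number of members called was 0 (15 and 18 of all genes). It was 1 without pooled G of ZT3 (58 of all genes) and 8 without pooled D of ZT4 (171). It was 3 without individual C of ZT3 (78) or without pooled F of ZT5 (74). It was also 0 without the 4 early libraries that stood apart (14 of all genes).

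NVE2702 had the smallest p among the higher members. Its ZT4 libraries held 230 CPM in individual C, 205 in pooled D, 521 in pooled E and 552 in pooled F, so pools E and F stood high and the other 2 did not. The ZT3 libraries of the rule ran from 167 to 364 CPM with a median of 216, and the ZT5 libraries from 124 to 183 CPM with a median of 148. The log2 difference was 0.97 (SE 0.19, edgeR's quasi-likelihood test, adjusted p = 0.00165). Its adjusted p was 0.110 without pooled E and 0.137 without pooled F of ZT4 in the same edgeR test. At ZT9 the same gene ran from 245 to 546 CPM with a median of 339, and it was highest at ZT12 under TMM scaling. The 1 member lower at an unadjusted p was NVE14336, at 3.56 to 13.1 CPM at ZT4 and 27.5 to 53 CPM at ZT9, with a log2 difference from ZT3 and ZT5 of -0.72 (SE 0.32, edgeR adjusted p = 0.352).

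Singled out after their values were seen, NVE19960 and NVE7526 were the 2 members whose ZT4 mean exceeded that of all other hours. NVE7526 held 513, 951, 656 and 616 CPM in the 4 ZT4 libraries, all above its 7 ZT5 values, and its difference from ZT3 and ZT5 was 0.90 (SE 0.22, edgeR adjusted p = 0.0266). For NVE19960 the ZT4 mean came from 2 of the 4 libraries.

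**Figure D4:**
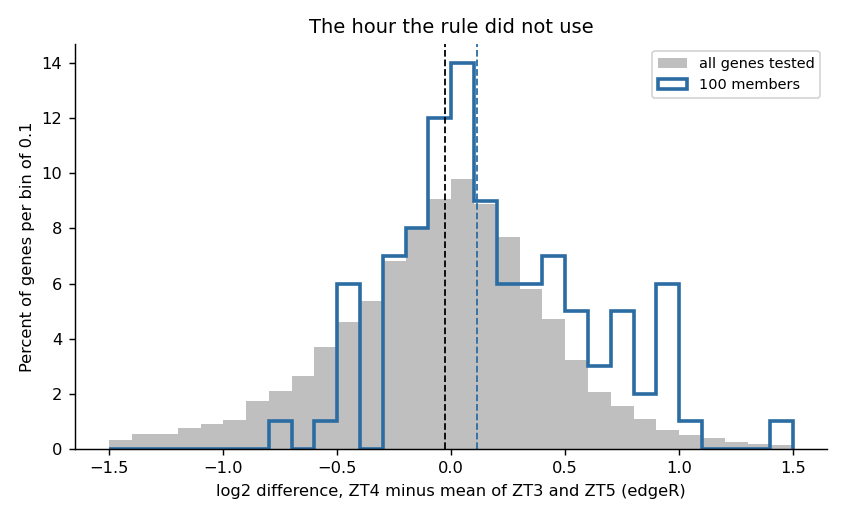
Distribution of the log2 difference of ZT4 from the mean of ZT3 and ZT5 in edgeR, as percent of genes per bin, for the 10916 gene models tested in grey and the 100 members as a blue outline, with dashed lines at the medians. The members' median is 0.11 and that of all genes -0.03, a shift smaller than the median SE of a member, 0.25.

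The members were not uniformly quiet in the libraries the rule left out. Individual library B of ZT3 and pooled library E of ZT5 stood at -0.30 and -0.10 by the median member, against -0.35 and -0.46 in the median library of the same hour. In pooled E of ZT5, 37 members exceeded the range of the 6 other ZT5 libraries, against 18.6% of the 7691 gene models. In individual B of ZT3, 26 members were above the range of the 6 other ZT3 libraries and 16 below it, against 13.2% and 21.3%. The rule favoured genes that were low in those other libraries, which raises the counts above the range.

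In 5 members (5%) a left-out library reached more than 2 times the highest of the 60, against 0.624% of the 7691 gene models. They were NVE19960, NVE25719, NVE16036, NVE26020 and NVE19097, named after their values were seen. NVE19960 held 13512 CPM in individual B of ZT3, 11783 in pooled E of ZT5, 7288 in individual C of ZT4 and 3954 in pooled E of ZT4. In the other ZT4 pools it held 23.1 CPM in D and 9.84 CPM in F, and in the 60 libraries of the rule 2.85 to 66.3 CPM with a median of 20.9. The lowest of these 4 early libraries, at 3954 CPM, thus lay far above the highest of the 60. Its place among the members rested on ZT9 values of 18.7 to 66.3 CPM, with a median of 32.3.

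The other 4 members were raised mainly in the ZT3 and ZT5 libraries of that group. NVE25719 held 146 CPM in individual B of ZT3 and 169 CPM in pooled E of ZT5, against 5.91 to 50.01 CPM in the 60 libraries. NVE16036 held 250 and 210 CPM there, against 15.6 to 88.1 CPM, and NVE26020 held 271 and 139 CPM, against 26.9 to 108 CPM. NVE19097 held 165 and 124 CPM, against 23.6 to 79.5 CPM. In each of these 4 genes the highest of the 60 libraries was a ZT9 library, and with all 66 libraries the hour effect of these 4 did not pass edgeR's test at an adjusted p of 0.05.

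**Figure D5:**
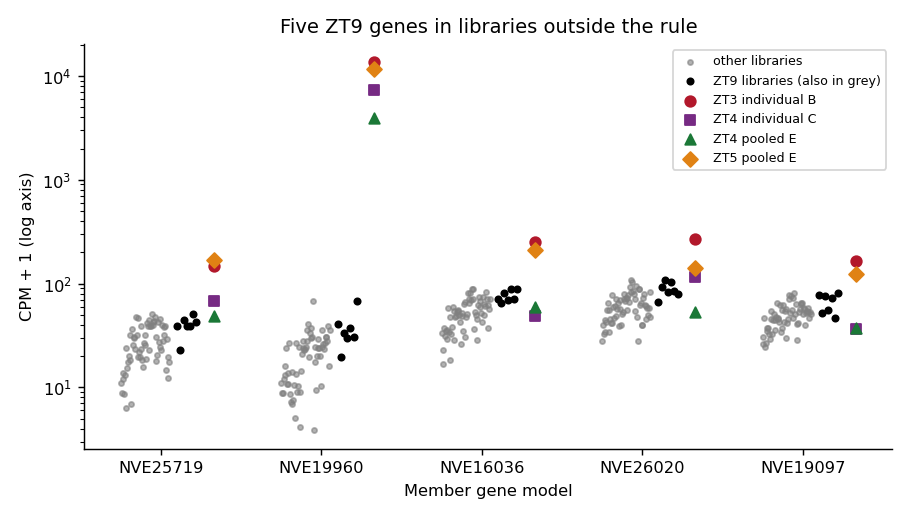
CPM + 1, on a log axis, of the 5 members that a left-out library raised above 2 times the highest of the 60 libraries, with coloured symbols for the 4 early libraries, black for the ZT9 libraries and grey for the others. NVE19960 reaches 3954 to 13512 CPM in the 4 early libraries and at most 66.3 CPM in the 60 libraries of the rule.

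No member was shown to differ in level between pools and single animals. The contrast of pooled with individual libraries, adjusted for the hour, called 0 of 100 members and 0 of 10916 gene models in edgeR's quasi-likelihood test. At an unadjusted p below 0.05 it gave 2 members higher in pools and 1 lower, against 4.88% of all genes tested. limma and DESeq2 also called 0 members. The median difference of a member was 0.01 log2 units, from -0.31 to 0.30 over the 100, with a median SE of 0.10. NVE17849 was the member with the smallest p among those higher in pools, at 58.1 ± 23.3 CPM in pooled (SD, n = 29) and 47.1 ± 14.5 CPM in individual libraries (SD, n = 37). Its log2 difference was 0.30 (SE 0.10, edgeR adjusted p = 0.815). NVE23766 stood at 33.4 ± 12.3 CPM in pooled and 38.3 ± 11.4 CPM in individual libraries, a log2 difference of -0.22 (SE 0.09, edgeR adjusted p = 0.929). With the replicate letter as a block, where pooled D of ZT4 carries the contrast, the difference of NVE23766 was 0.42.

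The ZT9 peak was also present in each kind of library taken alone. In individual libraries 77 members had their highest hourly mean at ZT9, against 29.8% of the 7691 gene models, and in pooled libraries 87 did, against 20.1%. The rule used both together, so these counts are no independent repeat. The excess of ZT9 over the mean of the other 8 hours had a median of 0.70 log2 units in individual and 0.67 in pooled libraries. It was positive in all 100 members in both, which the choice of genes high at ZT9 largely fixes. No value over all genes stands beside these excesses. The difference of these excesses was tested with edgeR's quasi-likelihood test, and 0 of 100 members and 0 of 10229 gene models passed an adjusted p of 0.05. A large difference would have lowered F, so the rule itself disfavours it. At an unadjusted p below 0.05, 4 members had a larger excess in pools and 1 in single animals, against 3.95% of all genes tested. limma called 0 members and DESeq2 called 0.

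NVE15550 had the smallest p on the side of the pools. Its ZT9 individual libraries A to D held 73.4, 39.6, 80.7 and 46.7 CPM and its pools E to G 85.7, 103 and 89.5 CPM, so the pools all stood above the single animals. The difference of the excesses was 0.70 log2 units (SE 0.25, edgeR adjusted p = 1). NVE24164 was the member on the opposite side. Its individual libraries held 242, 112, 173 and 282 CPM and its pools 110, 60.95 and 84.5 CPM, with no overlap. The difference was -1.20 log2 units (SE 0.58, edgeR adjusted p = 1).

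In edgeR's test of the hour over all 66 libraries, 93 of 100 members passed an adjusted p of 0.05, beside 19.3% of the 10916 gene models. The rule used this contrast, so nothing is read from the count. Without the 4 early libraries, a setting chosen after seeing the data, the count was 98, beside 17.3% of 11726 gene models. The 7 members that did not pass included NVE25719, NVE16036, NVE26020 and NVE19097. Between single hours, again with contrasts the rule used, 70 members were higher at ZT9 than at ZT5, beside 4.17% of all genes tested, and 1, NVE19960, was lower, with pooled E of ZT5 at 11783 CPM in that gene. The hours next to ZT9 were less separate from it. Against ZT8, 2 members were higher at ZT9 (NVE12346 and NVE14336), beside 0.0366% of all genes tested. From ZT9 to ZT10, 5 members were lower at ZT10, beside 0.156%. NVE12346 was among them, at -1.11 log2 units (SE 0.32, edgeR adjusted p = 0.0436). Between ZT9 and ZT12, 0 members passed, 23 were lower at ZT12 at an unadjusted p below 0.05, beside 3.69% of all genes tested, and the smallest edgeR adjusted p of a member was 0.0502.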

How the data were processed

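RNA of whole adults was sequenced in 66 libraries, and the deposited table of the authors gives whole-number counts for 24265 gene models. Reads were aligned to the genome published by Putnam et al., per the labels, with Bowtie2, per the submitters' processing notes. The version, counting tool and annotation are not given in the sources used here. Reads shared by related gene models may have been split or dropped. Counting error is included in the spread between libraries, and the replicates are separate animals or pools per the labels.

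The members and gene rules were chosen with earlier results of these data known. CPM used column sums, with 2 added before log2. Counts were tested with edgeR 4.0.16 in R 4.3.3 (quasi-likelihood F test, robust, TMM) on the 10916 gene models that pass its expression filter (minimum count 10, hour as group), which hold 97.2% of counts. Hour and sample type were the terms, leaving 55 residual degrees of freedom. The test of the ZT9 excess used hour by type groups of the 60 libraries, with 10229 gene models and 42 residual degrees of freedom. The Benjamini-Hochberg threshold was 0.05, over all genes tested. limma 3.58.1 (voom with quality weights), DESeq2 1.42.0, DESeq2 size factors, no filter, other covariates, a replicate block and each library left out were alternatives. Scripts were tested on simulated data. No pair of libraries agreed within sampling noise (lowest chi-square per degree of freedom 2.65).

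Genes were named by rule, at most 2 in a direction. They were those with the largest F, the highest CPM, the sharpest and the flattest peak, the largest spread, ranks 100 and 101, and the smallest p on either side of each test. Genes named otherwise are marked where they appear.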

Additional observations from a re-analysis of the deposited data

Results flagged for a closer look

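In groups of 4 individual libraries, 8 of 162 sets of values (18 measures in 9 hours) had 1 library set off from the other 3 by more than Dixon's 95% limit of 0.829 of the whole range. Chance gives about 1 in 20 such sets, so this number is close to what chance gives.

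The isolated library was high in 5 cases. NVE7526 held 479 CPM in individual C of ZT8, where the other 3 held 257 to 294 CPM. NVE2702 held 388 CPM in individual D of ZT8, against 217 to 244 CPM. NVE6210 held 216 CPM in individual D of ZT12, against at most 106 CPM. NVE15550 held 42.9 CPM in individual A of ZT5, against 21.8 to 24.6 CPM. NVE10350 held 51.2 CPM in individual B of ZT3, a library outside the rule, against 12.5 to 18.9 CPM.

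It was low in the other 3 cases. NVE15740 held 31.1 CPM in individual C of ZT11, against 48.4 to 51.8 CPM. NVE1539 held 72.4 CPM in individual C of ZT7, against 99.7 to 102 CPM, and NVE14336 held 9.39 CPM in individual A of ZT8, against 22.98 to 24.7 CPM. No single library accounts for these 8 cases, and individual C held 3 of them at different hours.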

How the results depend on the processing

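The list depended most on the libraries it was drawn from. Drawn from individual libraries alone it kept 42 of the 100 members, and from pooled libraries alone 31. The other settings (TMM scaling, 0.5 or 5 added, a minimum mean of 5 or 30 CPM, all 66 libraries, thinning to 424453 counts) kept 71 to 99, and each library left out kept 81 to 97. The median excess of ZT9 over the other hours was 0.67 log2 units and 0.54 with TMM scaling. Of the members, 5 were called at ZT4 in edgeR's test, against 11 with limma, 7 with DESeq2, 1 with no filter on low counts, 0 without the 4 early libraries, and 0 to 8 with each library left out. Over all genes that test called 86, against 398 with limma, 166 with DESeq2, 53 with no filter, 14 without the 4 early libraries and 15 to 171 with each library left out. The call of NVE2702 was lost in 3 of 73 settings. The causes were not tested. With the replicate block (the library letter), 88 members were called for the hour (18.6% of all genes tested), 5 higher at ZT4 (0.724%) and 0 for the ZT9 excess (0 of all genes). Same-letter libraries of different hours had a median r of 0.02 over 261 pairs, against -0.001 over 693 pairs of other letters. Whether a letter marks anything shared between hours was not tested. For pools against individuals the block was added after seeing the data. It rests on pooled D of ZT4, the 1 library that gives a letter both types. It called 0 members and 11 of 10916 gene models (0.101%), and NVE23766 reversed to 0.42 log2 units (edgeR adjusted p = 0.861). No other direction reversed among the tests of named genes and the differences of ZT9 from the mean of the other hours. Under TMM scaling ZT9 fell below another hour in 22 members, as given above. Depth limits the low members, with 8 counts as the lowest at ZT9.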
